A study of Mus musculus with 60 samples.

Results

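The 38 genes described here are imprinted genes of the mouse, picked by symbol from the 24508 genes of the deposited expression table and placed in 17 clusters by their position. RNA-seq signal was compared in the hippocampus of 30-week-old R6/1 mice and wild-type (WT) mice of the same mixed background, CBA crossed with C57BL/6. There were 9 libraries per genotype, each from 1 biological replicate. R6/1 mice model Huntington's disease: under the human promoter they express exon 1 of human huntingtin with an expanded CAG repeat. The sex of the mice is not in the labels used here, and no treatment is named there. Lamin B1 ChIP-seq of the same tissue, made from 3 replicates per genotype with 5 mice pooled in each, is used only through the 1 list of lamin B1 domains that was deposited for each genotype.

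An imprinted gene is transcribed mainly from the allele inherited from 1 parent. The choice of allele goes back to DNA methylation set in the germ line at an imprinting control region, which often governs several neighbouring genes and at least one non-coding RNA at once. Many imprinted genes are strongly expressed in brain, where they act in growth, feeding, thyroid hormone handling and protein turnover, and for several of them imprinting differs between neurons and other cells. The libraries did not separate the parental alleles, so each value below is the sum over both.

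Values are RPKM, reads per kilobase of gene scaled for depth, so levels can be set side by side between genes. A log2 change is the difference, R6/1 minus WT, of mean log2(RPKM + 0.5), and for genes near or below 0.5 RPKM it is smaller than the true fold change. The test was limma, fitted over all genes whose mean reached 0.5 RPKM, with Benjamini-Hochberg adjustment over those genes and a threshold of 0.05. Libraries held between 12299434 and 16457022 reads on genes in WT and between 13260311 and 16736544 in R6/1. Markers of hippocampal cells were present in every library. The summed level of 6 dentate granule markers was between 71.3 and 111 RPKM in WT and between 42.3 and 53.6 RPKM in R6/1, and all 6 were lower in R6/1. The 6 CA pyramidal markers and the 6 astrocyte markers were all lower as well. In bulk tissue, fewer cells of a type and less RNA per cell cannot be told apart. Libraries also differed in RNA of the choroid plexus, the secretory tissue that lies against the hippocampus: the summed level of 12 of its markers ran from 27.4 to 1096 RPKM in WT and from 42.6 to 1772 RPKM in R6/1. The median of the sum was 127 RPKM in WT and 406 RPKM in R6/1. None of the 12 passed the limma test between genotypes, none had an unadjusted p under 0.05, and none passed in the authors' deposited table. Intervals were wide, as for Ttr (log2 change 0.77, 95% interval -1.13 to 2.68), so the test cannot show that the genotypes held equal amounts. In 5 libraries, WT replicates 1, 3 and 5 and R6/1 replicates 3 and 4, the sum of choroid plexus markers was over 900 RPKM. For several genes below, the value without these 5 is given as well. Such a value is not a correction for choroid plexus RNA, since anything else that sets these libraries apart is left out with them.

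Of the 38 imprinted genes, 31 reached the minimum level and were tested. In R6/1, 16 were higher, 3 were lower and 12 did not pass the test. The share of tested imprinted genes that passed was 61.3%, beside 48.3% of all 14446 genes tested (24.8% higher and 23.5% lower). The median log2 change was 0.26 over the tested imprinted genes and 0.0036 over all genes tested. Igf2os, Magel2 and Dio3 had a mean under 0.5 RPKM in 1 genotype and entered the test through the other. For 7 genes the 9 libraries of one genotype lay entirely beyond the 9 of the other: Igf2os, Grb10, Mest, Impact, Inpp5f and Peg3 above WT, and Nnat below it. That is 22.6% of the tested imprinted genes, beside 11.9% of all genes tested. The imprinted genes were chosen with earlier results of these data known, so these shares and medians are a description and not a test. In 3 clusters, at Dlk1-Dio3, Peg3 and Nnat-Blcap, members passed the test in both directions. The authors' deposited table called 19 of the 37 imprinted genes to which it gives an adjusted p, against 40.4% of all genes in it, and these were the 19 called by limma, with the same signs. Without the 5 libraries rich in choroid plexus RNA, a setting added after the data were seen, 19 imprinted genes were higher and 3 lower. Of all 14438 genes tested in that setting, 3140 were higher and 3013 lower. With choroid plexus markers as a covariate instead, 16 imprinted genes were higher and 3 lower, as in the main fit. Among all genes, 3652 were then higher and 3465 lower.

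**Figure D1:**
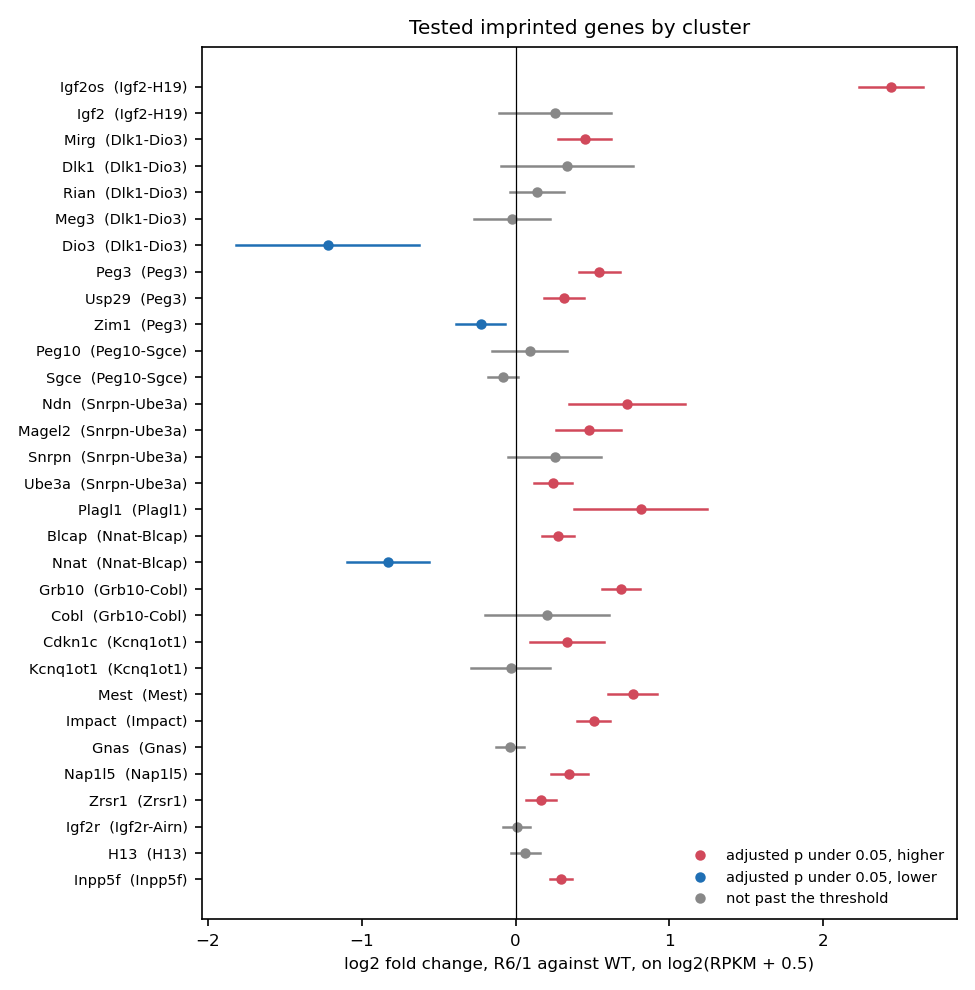
Log2 change (R6/1 minus WT, on log2(RPKM + 0.5)) of the tested imprinted genes, grouped by cluster, with 95% confidence intervals from limma over 9 libraries per genotype. Igf2os lies farthest right at 2.44 and Dio3 farthest left at -1.22.

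Igf2 and H19 are the classic imprinted pair. In most tissues Igf2, which encodes a growth factor, is expressed from the paternal allele, and H19, a non-coding RNA, from the maternal allele. Which allele gave the Igf2 reads of these libraries was not measured. Igf2os is a non-coding transcript of the opposite strand. On build NCBIM37, Igf2 spans chromosome 7 from 149836673 to 149852721 on the minus strand. Igf2os, annotated there as the lincRNA Igf2as, spans 149845598 to 149856261 on the plus strand, so the gene models share 7124 bases, and H19 lies apart at 149761434 to 149764048 on the minus strand. Igf2os had the largest fold change of the 31 tested imprinted genes, while the Igf2 levels of the genotypes overlapped.

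Igf2os ran from 0.0556 to 0.211 RPKM in the WT libraries with a median of 0.0821, and from 1.94 to 3.81 RPKM in the R6/1 libraries with a median of 2.56. Every R6/1 library was above every WT library. In reads, WT libraries held 4 to 16 each and 62 in all, and R6/1 libraries 153 to 294 each and 1896 in all. Scaled for depth, the summed reads were 27.6 times higher in R6/1, with an exact 95% interval of 21.4 to 36.2 that covers counting error only. The log2 change was 2.44 (SE 0.0993, adjusted p by limma = 2.76e-13), and in the authors' deposited table it was 3.95.

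Igf2 was 21.9 ± 8.31 in WT and 25.7 ± 6.21 RPKM in R6/1 (SD over the 9 libraries of each). In WT it ran from 14.9 to 41.1 RPKM with a median of 19.7, and in R6/1 from 14.7 to 37.0 RPKM with a median of 24.6. The lowest R6/1 library was below every WT library and the highest library of all was WT, so the genotypes overlapped across nearly their whole range. The log2 change was 0.26 with a 95% interval of -0.11 to 0.62 (adjusted p by limma = 0.233). Igf2 passed the test in 3 of 33 alternatives. It passed without the 5 libraries rich in choroid plexus RNA (0.39, adjusted p = 0.0230) and without WT replicate 5, the library highest in Igf2 (0.38, adjusted p = 0.0388). It also passed with leptomeningeal markers as a covariate (0.42, adjusted p = 0.0209). With choroid plexus markers as a covariate, Igf2 did not pass. H19 was near the detection limit: its reads summed to 18 over the WT libraries and 8 over the R6/1 libraries, with 0 reads in 2 WT and 5 R6/1 libraries. The level of H19 ran from 0 to 0.172 RPKM in WT with a median of 0.0543 and from 0 to 0.0789 in R6/1 with a median of 0, and it was not tested. In a library of this depth, 0 reads are compatible with up to 3.

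**Figure D2:**
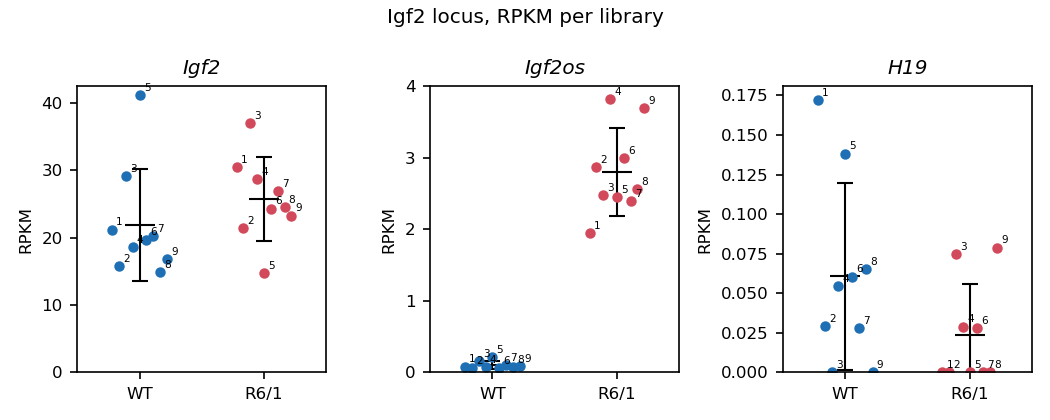
RPKM of Igf2, Igf2os and H19 in each library (points, labelled by replicate number), with the mean and SD of the 9 libraries per genotype as bars; each gene has its own vertical axis, from 0. The R6/1 libraries stand apart from WT for Igf2os (1.94 to 3.81 against 0.0556 to 0.211 RPKM) and overlap with WT for Igf2 and H19.

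The other genes around Igf2os were examined over the 250 kb on either side of its start. Of 12 genes of the table there, Lsp1, Mrpl23 and Igf2 were expressed enough to test. None of these 3 passed the limma test, none had an unadjusted p under 0.05, and none passed in the authors' deposited table. The others, Syt8, Tnni2, Tnnt3, Prr33, Nctc1, Mir675, H19, Mir483 and Ins2, were under the minimum level. Mir483, a microRNA inside Igf2, had 1 read in all WT libraries and 6 in all R6/1 libraries. Prr33, at 0.114 in WT and 0.0596 RPKM in R6/1, passed only when the minimum level was dropped (log2 change -0.13, adjusted p by limma = 0.0372, where 35.2% of all genes passed). Igf2os was thus the only gene of the 4 tested in this window, itself included, that passed. The RNA kit marks strand, but whether strand was used in counting is not given in the sources used here. Reads of Igf2 and Igf2os in their shared bases therefore cannot be assigned with certainty. Across the R6/1 animals no relation of Igf2os with Igf2 was detected (Pearson r = -0.09, Spearman rho = -0.23, n = 9, exact permutation p = 0.822 for r, two-sided). In WT the relation had r = 0.92 (rho = 0.72, exact permutation p = 0.00315, 0.0110 adjusted over the 8 relations computed), but it rested on the 62 reads of Igf2os and on replicates 3 and 5, without which r was 0.34.

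Igf2 in adult brain is known to come largely from the choroid plexus, the leptomeninges and the vasculature. Its level was set beside markers of the choroid plexus and the leptomeninges, and its relation to vascular markers was not examined. Across WT libraries, Igf2 rose with the mean of the 12 choroid plexus markers (r = 0.76, exact permutation p = 0.00610, adjusted 0.0110; rho = 0.72, adjusted 0.0805), and r was 0.61 without replicates 3 and 5. In R6/1 the same r was 0.66 (adjusted p = 0.0681 by exact permutation; rho = 0.53), and 0.68 without replicates 3 and 7. With the 12 leptomeningeal markers, r was 0.54 in WT (adjusted p = 0.165 by exact permutation) and turned to -0.20 without replicates 1 and 5. In R6/1 it was 0.82 (adjusted p = 0.0110 by exact permutation; rho = 0.68) and fell to 0.39 without replicates 3 and 5, so that relation rested on those libraries. Leptomeningeal markers summed to between 27.1 and 71.1 RPKM in WT and between 20.3 and 51.7 RPKM in R6/1. Of the 11 tested, 2 were lower in R6/1, Ogn and Lum, and none higher. The part of these tissues in the Igf2 level was not tested beyond these relations and the values above.

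**Figure D3:**
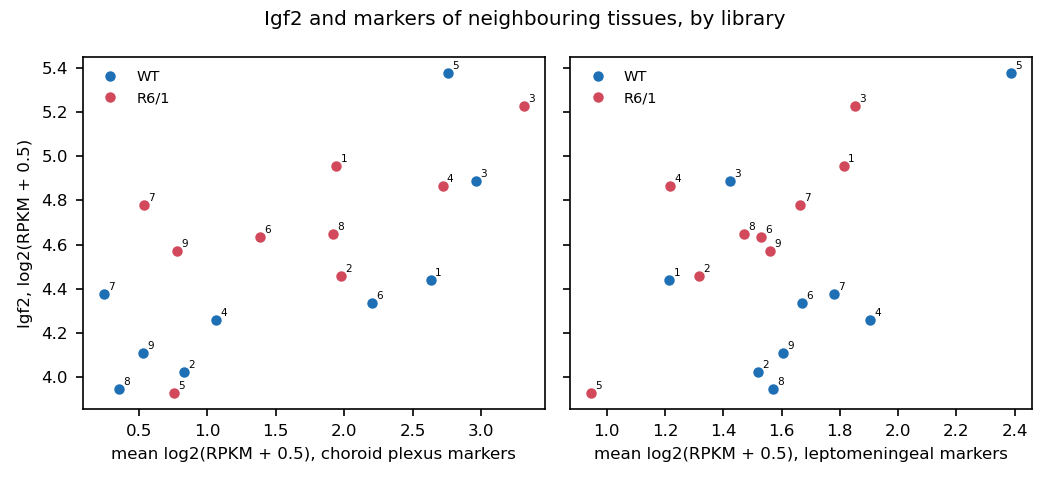
Igf2 in each library, on log2(RPKM + 0.5), against the mean of 12 choroid plexus markers (left) and of 12 leptomeningeal markers (right) on the same scale; points are libraries, labelled by replicate number and coloured by genotype. WT replicate 5, the highest in Igf2 at 41.1 RPKM, is also the highest in leptomeningeal markers.

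The proteins that receive and bind insulin-like growth factors were described from a list of 14 genes, of which 12 were tested. In R6/1, 2 were higher, 4 lower and 6 did not pass, a share near the 48.3% of all genes tested that passed. Igfbp5, a binding protein, went from 52.1 ± 6.54 in WT to 19.1 ± 3.94 in R6/1 (SD over the 9 libraries of each), a log2 change of -1.44 (adjusted p by limma = 1.68e-09). Igfbp4 went from 35.9 ± 3.91 to 19.9 ± 1.97 RPKM (-0.84, adjusted p = 3.77e-09), and Igf1, the related growth factor, from 1.37 ± 0.150 to 0.690 ± 0.140 RPKM (-0.66, adjusted p = 9.34e-07). For each of these 3 genes every R6/1 library was below every WT library. Igfbp6, which prefers IGF2 as its ligand, rose from 6.82 ± 1.64 to 11.8 ± 1.89 RPKM (0.76, adjusted p = 2.04e-05). Igf2r, the imprinted receptor that clears IGF2, was among the steadiest members: it ran from 5.67 to 6.76 RPKM in WT with a median of 6.53, and from 5.83 to 6.89 RPKM in R6/1 with a median of 6.39. Its log2 change was 0.01 with a 95% interval of -0.08 to 0.09 (adjusted p = 0.922). Airn, the antisense RNA whose gene model overlaps Igf2r, was at 0.186 in WT and 0.231 RPKM in R6/1 and was not tested.

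The Dlk1-Dio3 cluster on chromosome 12 pairs 3 protein-coding genes of the paternal allele with 3 long non-coding RNAs of the maternal allele. Dio3, the enzyme that inactivates thyroid hormone, was lower in R6/1, Mirg was higher, and Dlk1, Meg3 and Rian did not pass the test. Dio3 ran from 0.333 to 4.63 RPKM in WT with a median of 1.44, and from 0.213 to 0.879 RPKM in R6/1 with a median of 0.336. WT libraries were spread over their range while R6/1 libraries were gathered at its lower end, and the genotypes overlapped. The log2 change was -1.22 (SE 0.285, adjusted p by limma = 0.00139), and without the 5 libraries rich in choroid plexus RNA it was -0.66 (adjusted p = 0.0311). WT replicates 1, 3 and 5 held the highest Dio3 levels, 3.12 to 4.63 RPKM, and the other 6 WT libraries held 0.333 to 1.89 RPKM.

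Meg3, Rian and Mirg are read in one direction and host many small RNAs, Rian the C/D box snoRNAs and Mirg a run of microRNAs. Mirg ran from 6.29 to 10.6 RPKM in WT with a median of 8.11, and from 9.49 to 14.1 RPKM in R6/1 with a median of 11.5. The upper WT libraries overlapped the lower R6/1 libraries. Its log2 change was 0.45 (SE 0.0818, adjusted p by limma = 0.00014). Meg3, far more abundant per length, ran from 87.8 to 167 RPKM in WT (median 119) and from 93.7 to 144 RPKM in R6/1 (median 127). The R6/1 range of Meg3 lay within the WT range, and its log2 change was -0.03 (95% interval -0.27 to 0.22). Rian ran from 81.8 to 143 RPKM in WT (median 107) and from 98.6 to 144 RPKM in R6/1 (median 126), and its log2 change was 0.14 (95% interval -0.04 to 0.32, adjusted p = 0.182).

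Within a genotype, Meg3 and Rian varied together over the animals. In WT, r was 0.83 (rho = 0.68, n = 9, exact permutation p = 0.00443, adjusted 0.0110), and 0.57 without replicates 6 and 9. In R6/1, r was 0.89 (rho = 0.83, exact permutation p = 0.00193, adjusted 0.0110), and 0.81 without replicates 1 and 4. Both genes were measured in the same libraries and share their depth scaling. Dlk1, a membrane protein of the Notch ligand family, was 2.12 ± 0.859 in WT and 2.79 ± 1.07 RPKM in R6/1 (SD over the 9 libraries of each), with a log2 change of 0.33 (95% interval -0.10 to 0.76, adjusted p = 0.189). Without the 5 libraries rich in choroid plexus RNA it was 0.56 (adjusted p = 0.0521). Rtl1, a gene derived from a retrotransposon, was at 0.328 in WT and 0.294 RPKM in R6/1 and was not tested.

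**Figure D4:**
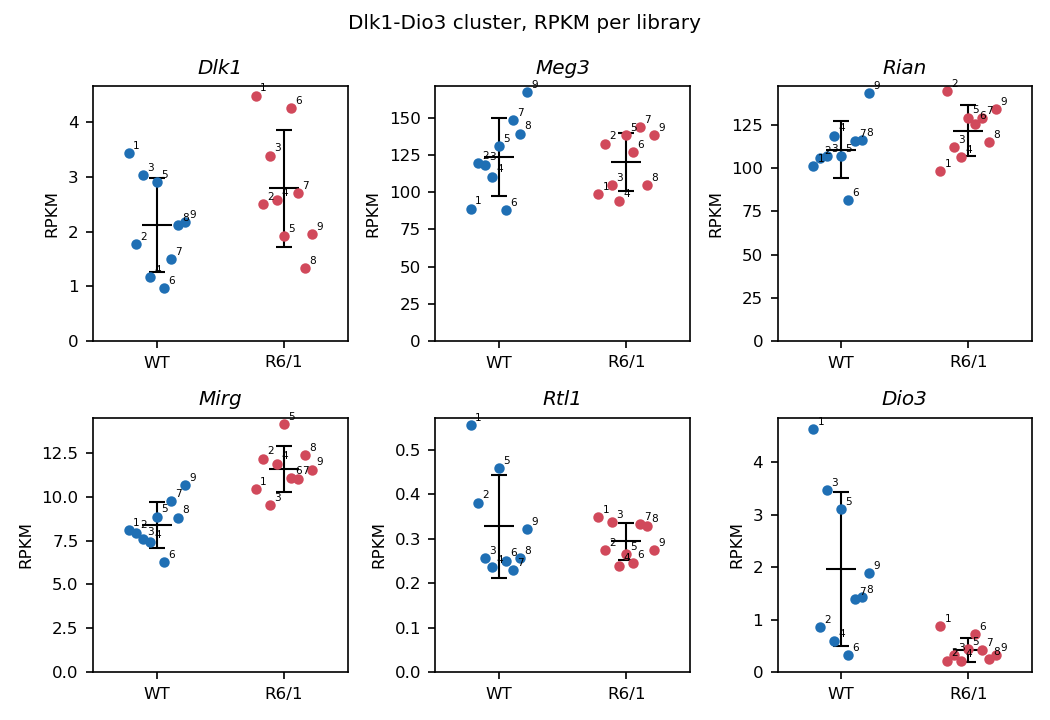
RPKM of the 6 genes of the Dlk1-Dio3 cluster in each library (points, labelled by replicate number), with mean and SD of the 9 libraries per genotype; each gene has its own vertical axis, from 0. Dio3 reached 4.63 RPKM in WT and no more than 0.879 RPKM in R6/1, Mirg was higher in R6/1, and the genotypes overlapped for Dlk1, Meg3 and Rian.

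In the Peg3 cluster on chromosome 7, the paternally expressed Peg3 and Usp29 rose together and the maternally expressed Zim1 fell. Peg3, a zinc finger protein, ran from 23.8 to 29.0 RPKM in WT with a median of 25.8, and from 31.7 to 45.5 RPKM in R6/1 with a median of 38.4. The genotypes did not overlap, and the log2 change was 0.54 (SE 0.0634, adjusted p by limma = 8.39e-07). Usp29, a ubiquitin protease, ran from 3.06 to 4.06 RPKM in WT (median 3.67) and from 3.89 to 5.27 RPKM in R6/1 (median 4.63), with a slight overlap and a log2 change of 0.32 (adjusted p = 0.000309). Zim1, also a zinc finger gene, went from 0.804 ± 0.113 to 0.615 ± 0.111 RPKM (SD over the 9 libraries of each), a log2 change of -0.23 (adjusted p = 0.0195). The Zim1 call was lost with quantile normalization (adjusted p = 0.0644), with scaling to each library's own total of reads (adjusted p = 0.0510) and with the replicate number as a block (adjusted p = 0.0603).

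Promoter windows of 300 bases, 250 before and 50 after each annotated start, were read from RefSeq on build GRCm38.p6. Entries were found for 31 of the 38 imprinted genes, and H19, Igf2os, Rtl1, Peg10, Sgce, Cdkn1c and Impact had none. Each was searched on both strands for TGCCGC, the core of the site that ZFP57 binds when methylated, and for AANATGGC, a form of the YY1 site known from the Peg3 control region. TGCCGC lay in a window of 9 of the 31 genes (29.0%), beside 13.0% of the 26994 other genes. Some genes had several windows, and by window the share was 22.2% of 45, beside 11.6% of 32806. AANATGGC lay in a window of 2 genes (6.45%, beside 6.96%). The windows of the 31 genes were also richer in CpG. The median over genes, taking the richest window of each, was 17 beside 8, and the median over windows was 15 beside 7. The part of base composition in the TGCCGC share was not tested. Below are 4 windows, 5′ to 3′ on the strand of the gene: Peg3, whose start lies 164 bases from that of Usp29 on the other strand, so that their windows share 263 bases; Mest and Plagl1, which rose in R6/1; and Nnat, which fell. Capitals mark TGCCGC, written GCGGCA where it lies on the opposite strand. For a gene with several windows, the window with the most TGCCGC was printed. Another Mest window, chr6:30733256-30733555, held no TGCCGC. In order, the windows are chr7:6730370-6730669 (minus strand), chr6:30737800-30738099, chr10:13090582-13090881 and chr2:157559828-157560127 (plus strand).
Peg3: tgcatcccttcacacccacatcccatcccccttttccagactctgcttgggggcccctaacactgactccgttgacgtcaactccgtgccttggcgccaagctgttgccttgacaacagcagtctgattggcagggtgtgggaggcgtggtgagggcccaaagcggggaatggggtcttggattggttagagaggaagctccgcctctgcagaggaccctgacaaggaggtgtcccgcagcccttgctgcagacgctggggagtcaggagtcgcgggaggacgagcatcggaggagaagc
Mest: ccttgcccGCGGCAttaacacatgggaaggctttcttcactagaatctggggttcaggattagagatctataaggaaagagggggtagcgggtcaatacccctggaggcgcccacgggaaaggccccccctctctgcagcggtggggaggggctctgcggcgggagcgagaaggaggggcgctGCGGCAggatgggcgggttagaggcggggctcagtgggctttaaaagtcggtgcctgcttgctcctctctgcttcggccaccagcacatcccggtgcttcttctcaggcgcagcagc
Plagl1: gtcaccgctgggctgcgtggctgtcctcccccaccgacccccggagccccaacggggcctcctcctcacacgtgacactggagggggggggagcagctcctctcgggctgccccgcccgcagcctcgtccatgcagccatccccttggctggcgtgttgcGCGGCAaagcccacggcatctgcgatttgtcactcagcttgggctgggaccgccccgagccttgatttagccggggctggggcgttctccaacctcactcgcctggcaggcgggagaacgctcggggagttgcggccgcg
Nnat: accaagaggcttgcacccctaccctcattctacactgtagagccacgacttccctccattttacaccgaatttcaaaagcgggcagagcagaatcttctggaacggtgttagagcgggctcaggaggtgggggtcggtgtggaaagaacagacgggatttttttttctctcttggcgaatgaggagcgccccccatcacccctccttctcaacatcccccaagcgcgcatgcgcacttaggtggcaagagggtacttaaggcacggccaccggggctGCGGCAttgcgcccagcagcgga
The Mest window holds the hexamer 2 times, those of Plagl1 and Nnat 1 time each, and the shared Peg3 and Usp29 window holds neither motif. Genes that rose and a gene that fell thus carry the same letters, and the letters alone say nothing about binding of either factor.

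Zfp57 itself and other factors that keep imprints were described from a list of 21 genes. Of the 17 tested, 5 were higher, 2 lower and 10 did not pass, so that fewer passed than the 48.3% of all genes tested. Zfp57, the zinc finger protein that holds methylation at imprinting control regions, fell from 1.54 ± 0.468 in WT to 0.809 ± 0.134 RPKM in R6/1 (SD over the 9 libraries of each), a log2 change of -0.61 (adjusted p by limma = 0.000189). Its corepressor Trim28 rose from 41.8 ± 1.59 to 49.4 ± 3.05 RPKM (0.24, adjusted p = 3.15e-05). The maintenance methyltransferase Dnmt1 rose from 8.32 ± 0.726 to 10.1 ± 0.751 RPKM (0.27, adjusted p = 0.000305), and the demethylating enzyme Tet2 from 5.53 ± 0.396 to 7.34 ± 0.538 RPKM (0.38, adjusted p = 3.11e-06). DNA methylation was not analysed here.

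On chromosome 7, the Snrpn-Ube3a cluster is the mouse counterpart of the Prader-Willi and Angelman region. Ndn, Magel2 and Ube3a were higher in R6/1, Snrpn did not pass the test and Mkrn3 was under the minimum level. Ndn, which encodes the neuronal protein necdin and is paternally expressed, ran from 55.1 to 141 RPKM in WT with a median of 64.9, and from 119 to 166 RPKM in R6/1 with a median of 141. The log2 change was 0.72 (SE 0.181, 95% interval 0.35 to 1.10, adjusted p by limma = 0.00245), and 1.05 without the 5 libraries rich in choroid plexus RNA. The WT libraries fell into separate sets. Replicates 1, 2, 3 and 5 held 118.6 to 141 RPKM, overlapping the R6/1 range. Replicates 4, 6, 7, 8 and 9 held 55.1 to 64.9 RPKM, below every R6/1 library. Replicates 1, 3 and 5 of the higher set are among the 5 libraries left out, so leaving those out lowers the WT mean. Replicate 2, at 128.8 RPKM of Ndn, had a choroid plexus marker sum of 118 RPKM, and replicate 6, at 61.2 RPKM, had 591 RPKM. A gap of more than 0.5 of the WT range with at least 3 libraries on each side was found in 110 of the 14446 genes tested (0.761%). Of the tested imprinted genes listed here, Ndn alone was among them.

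Snrpn, a spliceosomal protein gene, was higher in the same 4 WT libraries, at 0.812 to 1.13 RPKM, than in the other 5, at 0.235 to 0.472 RPKM. Over all WT libraries it ran from 0.235 to 1.13 RPKM with a median of 0.472, and in R6/1 from 0.583 to 1.14 RPKM with a median of 0.834. Its log2 change was 0.25 (adjusted p = 0.160), and 0.47 without the 5 libraries rich in choroid plexus RNA (adjusted p = 0.00916). It also passed with array weights (0.34, adjusted p by limma = 0.0469). The Snrpn values rest on few reads, 9 to 34 in each WT library and 21 to 42 in each R6/1 library. Whether these are all reads of the gene was not tested. Magel2, of the same protein family as necdin, ran from 0.224 to 0.579 RPKM in WT (median 0.362) and from 0.567 to 1.03 RPKM in R6/1 (median 0.686). Only the edges of the Magel2 ranges touched, and the log2 change was 0.47 (adjusted p by limma = 0.000628). Mkrn3, a ring finger gene, was at 0.294 in WT and 0.204 RPKM in R6/1, and passed as lower only when the minimum level was dropped (log2 change -0.18, adjusted p = 0.00414, beside the 35.2% of all genes that passed then). Ube3a, the ubiquitin ligase that neurons express from the maternal allele, ran from 13.2 to 16.99 RPKM in WT (median 15.6) and from 15.1 to 19.98 RPKM in R6/1 (median 18.5). Its ranges overlapped, and the log2 change was 0.24 (SE 0.0604, adjusted p = 0.00242).

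Nnat lies within an intron of Blcap on the opposite strand of chromosome 2, the models sharing 2445 bases, and the genes moved in opposite directions. Nnat encodes neuronatin, a small membrane protein of neurons that acts on calcium stores. It ran from 130 to 265 RPKM in WT with a median of 160, and from 82.1 to 124 RPKM in R6/1 with a median of 99.7, so the genotypes did not overlap. The log2 change was -0.83 (SE 0.128, adjusted p by limma = 2.12e-05), and -0.64 without the 5 libraries rich in choroid plexus RNA. Blcap, the host gene, rose from 45.3 ± 4.24 to 54.8 ± 3.01 RPKM (SD over the 9 libraries of each), a log2 change of 0.28 (adjusted p = 0.000133). Since the counting strand is not given, a share of the reads could lie under the wrong gene of this pair, and the size of such a share was not tested. Gene models of other members, among them Nap1l5, Zrsr1, Mest, Gnas, Igf2r and Airn, also overlap a model of the opposite strand, and the same limit holds there.

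**Figure D5:**
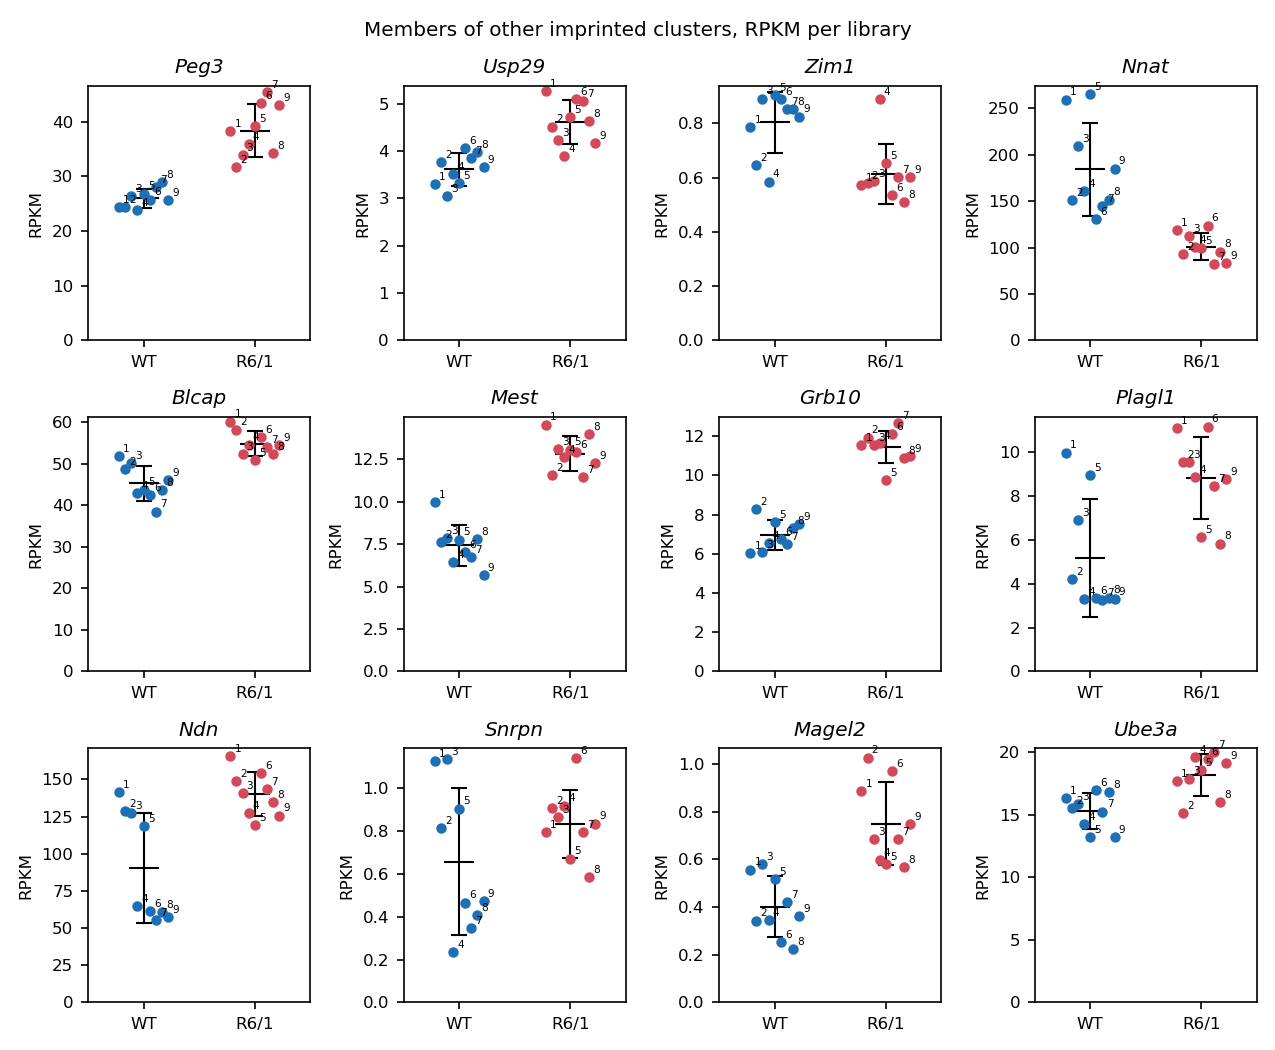
RPKM of further imprinted genes in each library (points, labelled by replicate number), with mean and SD of the 9 libraries per genotype; each gene has its own vertical axis, from 0. The split of the WT libraries of Ndn (55.1 to 64.9 and 118.6 to 141 RPKM) and the separation of the genotypes for Peg3, Mest, Grb10 and Nnat can be seen.

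Mest, Grb10, Plagl1 and Cdkn1c lie in 4 different clusters and were higher in R6/1. Mest, an enzyme of the hydrolase family, ran from 5.67 to 9.97 RPKM in WT with a median of 7.63, and from 11.5 to 14.5 RPKM in R6/1 with a median of 12.9. The genotypes did not overlap, and the log2 change was 0.76 (SE 0.0756, adjusted p by limma = 9.6e-08). Grb10, an adaptor that dampens insulin and IGF receptor signalling and is expressed from the paternal allele in neurons, ran from 6.04 to 8.28 RPKM in WT (median 6.74) and from 9.77 to 12.6 RPKM in R6/1 (median 11.5). It did not overlap either, at a log2 change of 0.68 (SE 0.0589, adjusted p = 1.36e-08). Cobl, an actin nucleator next to Grb10, did not pass the test (5.49 ± 1.98 RPKM in WT and 6.41 ± 2.29 RPKM in R6/1, adjusted p = 0.403). Plagl1, a zinc finger transcription factor, ran from 3.23 to 9.97 RPKM in WT (median 3.37) and from 5.83 to 11.2 RPKM in R6/1 (median 8.85). Its genotypes overlapped through WT replicates 1, 3 and 5, at 6.90 to 9.97 RPKM, while the other 6 WT libraries, at 3.23 to 4.22 RPKM, were below every R6/1 library. The log2 change of Plagl1 was 0.81 (SE 0.207, adjusted p by limma = 0.00285), and 1.18 without the 5 libraries rich in choroid plexus RNA. Those 5 include WT replicates 1, 3 and 5, so leaving them out lowers the WT mean. The 2 R6/1 libraries among them held 9.55 and 8.85 RPKM, beside an R6/1 median of 8.85 RPKM.

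Cdkn1c, the cell cycle inhibitor of the Kcnq1ot1 cluster, ran from 1.99 to 3.52 RPKM in WT (median 2.27) and from 2.36 to 4.76 RPKM in R6/1 (median 3.33). The ranges overlapped widely, and the log2 change was 0.33 (SE 0.115, adjusted p by limma = 0.0204). Kcnq1ot1, the long antisense RNA that silences this cluster on the paternal allele, was 1.46 ± 0.392 in WT and 1.41 ± 0.380 RPKM in R6/1 (SD over the 9 libraries of each), at a log2 change of -0.03 (95% interval -0.29 to 0.23). The other 3 members of the cluster were too low to test. Slc22a18, a transporter, was at 0.364 in WT and 0.246 RPKM in R6/1, Ascl2 at 0.0848 and 0.0434 RPKM, and Phlda2 had 1 read in 1 WT library and 0 in all others.

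Impact, Inpp5f, Nap1l5 and Zrsr1 are single imprinted genes and were all higher in R6/1. Impact, a regulator of the translation kinase GCN2 that is abundant in neurons, ran from 66.0 to 92.0 RPKM in WT with a median of 76.5, and from 100.4 to 118 RPKM in R6/1 with a median of 111. The genotypes did not overlap, at a log2 change of 0.51 (SE 0.0514, adjusted p by limma = 1.28e-07). Inpp5f, an inositol phosphatase with an imprinted brain transcript, went from 27.3 ± 0.989 to 33.6 ± 1.70 RPKM (SD over the 9 libraries of each), also without overlap (log2 change 0.30, adjusted p = 5.48e-07). Nap1l5, a relative of histone chaperones and the imprinted gene with the highest mean level, ran from 128 to 176 RPKM in WT (median 138) and from 173 to 193 RPKM in R6/1 (median 184). A narrow overlap remained, and the log2 change of Nap1l5 was 0.35 (adjusted p = 3.79e-05). Zrsr1, a splicing factor gene within an intron of Commd1, went from 15.0 ± 1.05 to 16.9 ± 1.19 RPKM (0.16, adjusted p = 0.00609).

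Gnas, H13, Peg10 and Sgce did not pass the test. Gnas, the stimulatory G protein alpha subunit, ran from 141 to 179 RPKM in WT (median 155) and from 146 to 162 RPKM in R6/1 (median 151). The R6/1 libraries lay within the WT range, and the log2 change was -0.04 with a 95% interval of -0.13 to 0.05 (adjusted p by limma = 0.517). H13, a signal peptide peptidase, was 6.27 ± 0.474 in WT and 6.57 ± 0.340 RPKM in R6/1 (SD over the 9 libraries of each), with a log2 change of 0.06. With scaling by the total reads of a library it passed (0.13, adjusted p = 0.0286). Peg10, derived from a retrotransposon, and Sgce, a sarcoglycan, start 102 bases apart on opposite strands. Peg10 was 3.32 ± 0.908 and 3.51 ± 0.536 RPKM, with a log2 change of 0.09 (95% interval -0.15 to 0.33), and 0.32 without the 5 libraries rich in choroid plexus RNA (adjusted p = 0.0126). Sgce was 11.6 ± 0.655 and 11 ± 0.908 RPKM, with a log2 change of -0.08 (95% interval -0.18 to 0.02), and passed as lower only without R6/1 replicate 9 (-0.11, adjusted p = 0.0460).

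A further list of 44 imprinted genes outside the 38 was counted in the same fit. Of its 26 tested genes, 12 were higher in R6/1, 3 were lower and 11 did not pass, beside 24.8% higher and 23.5% lower among all genes tested. The median log2 change was 0.07, beside 0.0036 over all genes tested. This list was also chosen with earlier results of these data known, so its counts are a description. Sfmbt2, a Polycomb group gene that entered the test through its R6/1 level, rose from 0.445 ± 0.0774 to 1.34 ± 0.141 RPKM (log2 change 0.96, adjusted p by limma = 1.43e-09). Ddc, an enzyme of monoamine synthesis, rose from 2.63 ± 0.399 to 5.27 ± 1.23 RPKM (0.87, adjusted p = 1.79e-06). Zdbf2 rose from 3.19 ± 0.649 to 5.63 ± 0.866 RPKM (0.74, adjusted p = 6.07e-06). Dhcr7, the last enzyme of cholesterol synthesis, fell from 13.3 ± 1.25 to 8.54 ± 0.774 RPKM (-0.61, adjusted p = 6.1e-08).

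Lamin B1 domains are long chromosome segments held at the nuclear lamina. On NCBIM37, 37 of the 38 imprinted genes could be placed. Their annotated start lay in a domain for 9 genes in the WT list (24.3%) and 7 in the R6/1 list (18.9%), beside 19.6% and 15.4% of the 22216 other genes placed. Of the 13960 of those other genes that were also expressed enough to test, 12.9% and 7.88% lay in a domain, while the shares of the imprinted genes include untested members such as Mkrn3. With 1 list per genotype there is no replicate spread and no test. Snrpn, Ndn, Magel2 and Mkrn3 lay in a domain of chromosome 7 in both lists, from 67044001 to 70559000 in WT and from 67007001 to 70078000 in R6/1. Ube3a, in the same cluster, lay outside, 0.0321 Mb from the nearest WT domain and 0.523 Mb from the nearest R6/1 domain. Grb10 and Cobl shared a domain of chromosome 11 in both lists, and Nap1l5 lay in a domain of chromosome 6 in both. Peg10 and Sgce were the 2 members inside a domain in WT only, the domain from 3034001 to 28046000 on chromosome 6, and neither passed the expression test. The Igf2 locus lay 33.8 Mb from the nearest domain in both lists. Genes in the same domain therefore included some that rose (Ndn, Magel2, Grb10) and some that did not pass the test (Snrpn, Cobl).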

How the data were processed

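RNA was prepared with a stranded mRNA kit and sequenced on 1 instrument type, per the labels' protocols. The submitters' processing notes name TopHat, Bowtie, DESeq2 and build mm9; versions, the counter, the annotation and the counting strand are not given in the sources used here. The authors deposited RPKM for 24508 genes, and, in a table of their comparison, a mean normalized count as a signal per gene, log2 fold changes and standard errors, a test score, and p-values with adjusted p-values. Deposited values were whole multiples of 1 read, within 0.05 of a read, for 99.87% to 99.91% of values, which gave the reads per library. Domain lists were deposited by the authors with 1 score per domain, which was not used.

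Groups are the labelled genotypes. Limma 3.58.1 in R 4.3.3 (lmFit and eBayes with trend, two-sided) was run on log2(RPKM + 0.5) for the 14446 genes whose mean over 18 libraries reached 0.5 RPKM. On simulated data over 14505 genes, this test recovered 62%, 88%, 100% and 98% of genes changed by 0.3, 0.6, 1 and 2 on the log2 scale. Of its calls, 3.33% were unchanged genes. All simulated libraries had the average depth, genes varied independently, and the spread between libraries was capped. Only 50 genes of each size were changed, all above the minimum level. The data held far more calls, differences shared by whole libraries and genes of wider spread, so these rates do not carry over to them. Relations between libraries used exact permutation tests over all orders of 9, with adjustment over 8 relations. No libraries were duplicates: the chi-square per gene was at least 4.04 over 72 pairs. That replicates were separate animals is given in the labels' protocols.

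The imprinted genes, clusters and gene lists were chosen with earlier results of these data known. All 38 genes are named. Lowest, median and highest values are given for those that passed with a log2 change of 0.3 or more in either direction and for Igf2, H19, Meg3, Rian, Snrpn, Ube3a, Gnas and Igf2r, and from each of 3 further lists up to 4 passing genes with the largest fold change are named. Gene positions are those of GENCODE on NCBIM37 (22253 genes placed, by symbol or synonym). Alternatives were other pseudocounts, filters, scalings, library weights, covariates, a replicate block and leaving out each library; leaving out the 5 libraries rich in choroid plexus markers was added after seeing the data. ATAC-seq was not used here.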

Additional observations from a re-analysis of the deposited data

Results flagged for a closer look

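In 3 of 76 groups of libraries, 1 library lay far from the other 8, with a gap to its neighbour above the 95% critical value of Dixon's test. Chance alone gives 3.8 of 76. Zim1 was 0.889 RPKM in R6/1 replicate 4, where the next highest library had 0.654 RPKM. Peg10 was 4.66 RPKM in R6/1 replicate 7, where the next highest had 3.72 RPKM. Phlda2 was 0.0858 RPKM in WT replicate 5 and 0 in the other WT libraries, a value that rests on 1 read.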

How the results depend on the processing

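Over the alternatives, 985 of 1017 values of the 31 tested imprinted genes kept their sign and their side of the threshold. The 19 calls kept their direction under each alternative that tested them, and the 3 values that lost a call were all of Zim1. With the replicate number as a block (replicate block), 16 members were higher and 2 lower; same-numbered libraries correlated between -0.05 and 0.24, over 0.1 for 3 of 9 numbers, and 2 of 9 correlated best with their own number, so the numbers were not taken as pairs. Leaving out each library gave 16 to 17 higher and 3 to 4 lower. With a minimum mean of 2 RPKM, 1 was lower, since fewer genes were tested. Scaling to each library's own total gave 17 higher and 2 lower, with 5113 of all genes higher and 2525 lower instead of 3586 and 3394; the median of all genes was then 0.07.

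Signs turned for 4 genes that never passed. The log2 change of Meg3 was 0.044 with quantile normalization, 0.048 with own totals and 0.011 with choroid plexus markers as a covariate, and between -0.083 and 0.033 without single libraries. That of Kcnq1ot1 was 0.016 with quantile normalization, 0.021 with own totals and 0.00040 with array weights, and between -0.090 and 0.034 without single libraries. Gnas was at 0.047 with quantile normalization, 0.037 with own totals and 0.028 without the 5 libraries rich in choroid plexus RNA. Igf2r was between -0.014 and 0.022 without single libraries. The relation of Igf2 with leptomeningeal markers in WT ranged from -0.28 to 0.73 without single libraries, and that of Igf2os with Igf2 in R6/1 from -0.40 to 0.10. The cause was not tested. Genes under about 0.5 RPKM, such as H19 and Phlda2, are limited by depth.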

Other observations

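WT replicates 1, 3 and 5 held the 3 highest WT levels of 9 of the 31 tested imprinted genes (29.0%): Igf2, Dlk1, Dio3, Peg10, Snrpn, Magel2, Plagl1, Nnat and Cdkn1c. The same 3 libraries were the highest for 458 of the 14446 genes tested (3.17%). Nnat, for example, was 209 to 265 RPKM in these 3 and 130 to 185 RPKM in the other 6, and Dlk1 was 2.91 to 3.43 and 0.964 to 2.17 RPKM. The summed level of the choroid plexus markers was 946 to 1096 RPKM in these libraries, 591 RPKM in WT replicate 6 and 27.4 to 127 RPKM in the other 5. This set of libraries was picked after the values were seen, so the shares are a description, and the part of choroid plexus RNA in them was not tested.

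Ndn was 1 of 7 genes with a wide gap in WT between replicates 1, 2, 3 and 5 and the rest. The others were Igfbp3, Rad54l2, 3000002C10Rik, Mir370, Mir539 and Mir6937. Mir370 is annotated inside Rian, of the imprinted Dlk1-Dio3 cluster.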
